A study of Mus musculus with 9 samples.

Results

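A set of 10 enzymes that make, use or recycle glutathione, or that clear reactive compounds with its help, was followed in the central cornea of 3 inbred mouse strains. The genes are Gstm1, Gstm2, Gsta4, Gsto1, Mgst1, Gpx1, Gpx3, Gclc, Gsr and Glo1, chosen by name, and they are 10 of 18193 genes that had a probe set with a single gene symbol. The choice was made with earlier results of these data known. A probe set is a group of short probes on the Affymetrix array that read the same transcript, and these genes had 20 of them. The probe set that was brightest on average across the 9 arrays stood for its gene, and the other ones served as a check. Of the 10 genes, 9 passed the filter on low values and were tested. Gpx3 did not pass.

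The strains were C57Bl/6J, called B6 here, C57BLKS/J, called KS, and SJL/J, called SJL. All mice were adult males, 4 months old, untreated as far as the labels say, and kept on the same diet and light cycle. Per the labels, KS has a thin cornea and SJL a thick one, and B6 is given no thickness. A 2-mm punch was cut from the centre of each cornea and the 2 punches of a mouse were pooled, so each of the 3 arrays of a strain stood for 1 mouse. Mice of an inbred strain replicate the strain and not a corneal thickness, so thickness and every other way in which these strains differ cannot be told apart. The arrays measured all cell layers of the punch together, so fewer cells of a type and less RNA per cell cannot be told apart.

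Glutathione is a small peptide with a reactive sulfur that cells use to neutralise peroxides and electrophiles. Glutamate-cysteine ligase, whose catalytic subunit is Gclc, makes its precursor, glutathione transferases attach it to reactive compounds, glutathione peroxidases spend it on peroxides, and glutathione reductase (Gsr) returns the oxidised form to use with NADPH. Glyoxalase 1 (Glo1) uses it to remove methylglyoxal, a by-product of glycolysis. The cornea faces light and air, and its epithelium is known for large amounts of detoxifying enzymes.

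Intensities on the array ran from 3.39 to 37501, and 54.6% of values lay below 16, near the lower end of the scale. Arrays of a strain correlated at 0.982 to 0.994 and arrays of different strains at 0.955 to 0.980. Markers of corneal epithelium were abundant in every strain: their 9 genes summed to 132318 to 134595 in B6, 129511 to 131504 in KS and 130189 to 135551 in SJL. Bright genes dominate that sum, and some of its genes differed. Muc1 (272, 983 and 135 in B6, KS and SJL) was called higher in KS than in both other strains. Cldn4 (978, 1046 and 2408) was called higher in SJL than in both, and Krt14 higher in SJL than in B6. The rest of that list was not called. The 7 keratocyte markers summed to 68611 to 74213, 71592 to 76483 and 65247 to 68343 in the same order, and 5 of 6 listed endothelial markers, which the array measured, to 10868 to 14100, 12577 to 14399 and 8181 to 10013. The 6 markers of conjunctiva and limbus summed to 24199 to 29682 in B6, 21602 to 24088 in KS and 6695 to 8397 in SJL. Of those 6, the conjunctival mucin Muc5ac stayed close to the floor of the scale on each array. Retina markers, 9 of 10 measured, summed to between 45.8 and 55.6 on every array of B6 and SJL, but reached 5466 on KS replicate 3. The photoreceptor gene Prph2 stayed near the lower end there. Called differences of a member from KS are therefore also given without that array. For other genes of the pathway, a call that is lost without it is named, except for Gsta2, Gstm5, Akr7a5 and Ephx1, which were not checked without it. Chromosomal neighbours were not refitted without it.

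The sequence just before a gene's start is shown for the 4 members that differed among strains, since these are the genes whose transcript levels the results turn on. RefSeq promoter entries (GRCm38.p6) held 7 of the 10 members. The 120 bases before the start are printed 5′ to 3′ in the direction of the gene, for Gstm1 at chr3:108017819-108017938 (minus strand), Gstm2 at chr3:107986421-107986540 (minus strand), Mgst1 at chr6:138140407-138140526 (plus strand) and Glo1 at chr17:30612660-30612779 (minus strand). Capitals mark matches to 4 short motifs, searched on both strands: the TATA box (the letters TATAAA), the CCAAT box (those 5 letters), the GC box (the letters GGGCGG) and the core of the antioxidant response element that NRF2 binds (the letters TGACNNNGC).
Gstm1: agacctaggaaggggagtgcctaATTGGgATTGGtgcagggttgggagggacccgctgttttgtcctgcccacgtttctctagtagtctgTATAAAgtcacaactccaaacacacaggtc
Gstm2: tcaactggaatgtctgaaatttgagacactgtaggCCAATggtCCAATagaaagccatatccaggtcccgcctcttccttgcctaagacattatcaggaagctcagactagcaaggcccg
Mgst1: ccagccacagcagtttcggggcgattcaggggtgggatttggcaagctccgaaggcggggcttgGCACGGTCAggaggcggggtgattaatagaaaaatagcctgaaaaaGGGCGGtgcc
Glo1: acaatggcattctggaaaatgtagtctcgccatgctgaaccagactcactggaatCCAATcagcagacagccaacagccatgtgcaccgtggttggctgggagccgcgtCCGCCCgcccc

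In the 250 bases before the start of all 32851 promoter entries, the TATA box was present in 12.4%, the CCAAT box in 33.8%, the GC box in 32.7% and the antioxidant core in 10.2%. Gstm1 held a TATA box 30 bases before its start, and CCAAT boxes on the opposite strand 97 and 91 bases before it. Gstm2 held CCAAT boxes on its own strand 85 and 77 bases before the start. The 2 stretches were 45.7% identical, over an alignment of 129 positions. Mgst1 was the only one of the 4 with the antioxidant core, on the opposite strand 56 bases before the start, and it had a GC box at 10 bases. Glo1 held a CCAAT box at 65 bases and overlapping GC boxes on the opposite strand at 11 and 7 bases, of which the first is in capitals. A further GC box of Glo1 on the opposite strand lay at 223 bases, beyond the printed stretch. For Gstm1 and Mgst1, RefSeq lists 2 starts and 1 is shown. A match of letters is a description of the sequence and was not tested for binding. The sequences are those of the reference genome, and no sequence of KS or SJL was examined.

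**Figure D1:**
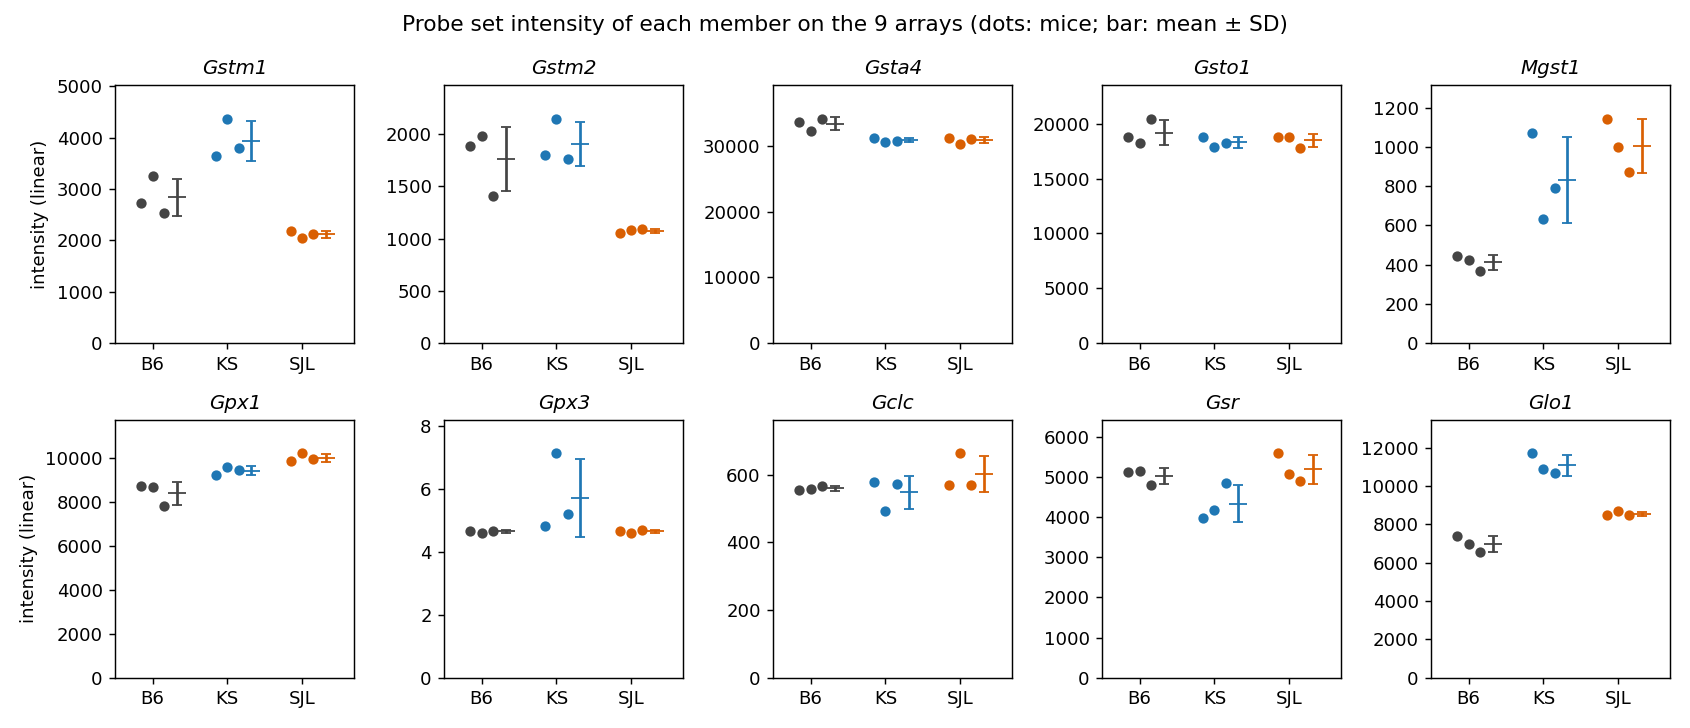
Intensity (linear scale) of the 10 genes on each array. Dots are single mice and the bars beside them the mean ± SD of 3 mice, and the Gstm1 and Gstm2 panels show all 3 SJL mice below all B6 and KS mice, whereas Gsta4, Gsto1 and Gclc lie near one level in the 3 strains.

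The mu-class transferases Gstm1 and Gstm2 were called lower in SJL than in either other strain. Gstm1 encodes a soluble enzyme that couples glutathione to a broad range of electrophiles. Its intensity was 2726, 3243 and 2532 on the B6 arrays, 3638, 4369 and 3789 on the KS arrays, and 2172, 2048 and 2122 on the SJL arrays. The 3 strains did not overlap, with KS highest and SJL lowest. Means were 2834 ± 368, 3932 ± 386 and 2114 ± 62.2 (SD, n = 3). Gstm1 was 1.85-fold lower in SJL than in KS (log2 difference -0.89, SE 0.12, adjusted p = 0.00123 by limma with Benjamini-Hochberg adjustment over 22519 probe sets), and 1.33-fold lower in SJL than in B6 (-0.41, adjusted p = 0.0433). The KS mean was 1.39-fold that of B6, which missed the threshold (0.47, 95% interval 0.21 to 0.74, adjusted p = 0.0516).

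Without KS replicate 3 the difference of SJL from KS in Gstm1 was -0.91 (adjusted p = 0.00623). The call of SJL against B6 rested on little margin: it was lost without B6 replicate 1 (adjusted p = 0.085), B6 replicate 2 (0.113), KS replicate 1 (0.0586), KS replicate 3 (0.0712) and each of SJL replicates 1 to 3 (0.0699, 0.0951 and 0.11). The difference of KS from B6 passed without B6 replicate 2 (adjusted p = 0.028). It also passed under 5 alternatives that kept all arrays, with adjusted p between 0.0257 for an intensity trend in the variance and 0.0429 for the stricter filter. A second Gstm1 probe set, 1448330_at, averaged 1738 ± 170 in B6, 2400 ± 199 in KS and 1281 ± 47.5 in SJL, and there all 3 differences were called: -0.90 for SJL against KS (adjusted p = 0.000573), 0.46 for KS against B6 (0.0346) and -0.43 for SJL against B6 (0.022). A dimmer one (1425627_x_at, 88 to 122) was called lower in SJL against KS (-0.43, adjusted p = 0.0186) and against B6 (-0.36, 0.037), but not between KS and B6 (0.07, 0.764). The fourth lay near 4.6 on all arrays and was not tested. The mean over all 4 gave -0.55 for SJL against KS (adjusted p = 0.000692). The suffix _x_at marks probes that can also bind related transcripts, so the split of signal among mu-class genes is uncertain for 1416416_x_at, the probe set that stands for Gstm1, and for 1425627_x_at.

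Gstm2, a close relative of Gstm1, had 1 probe set. It read 1890, 1984 and 1408 in B6, 1798, 2150 and 1766 in KS, and 1053, 1086 and 1088 in SJL. B6 and KS overlapped, and every SJL array lay below both. Means were 1761 ± 309, 1904 ± 213 and 1076 ± 19.4 (SD, n = 3). SJL was 1.76-fold lower than KS (log2 difference -0.81, SE 0.14, adjusted p = 0.00546 by limma) and 1.61-fold lower than B6 (-0.69, adjusted p = 0.0115), and both calls held under every alternative run. Without KS replicate 3 the first was -0.86 (adjusted p = 0.0162). KS and B6 differed by 0.12 (95% interval -0.20 to 0.44, adjusted p = 0.689). The summed markers of conjunctiva and limbus, of endothelium and of keratocytes were also lower on every SJL array than on every B6 and KS array, as given above. For keratocytes the margin was narrow, 68343 on the highest SJL array beside 68611 on the lowest B6 array. The keratocyte list also shares the bright gene Aldh3a1 with the epithelial list. Genes within the lists of conjunctiva and limbus, endothelium and keratocytes did not move together. Krt13, Krt15, Gpha2 and Atp1b1 were called lower in SJL than in both other strains. In SJL, Krt4 was called lower than in B6 only, and Dcn lower than in KS only. Krt19 was called higher in SJL (3322) than in B6 (2083, adjusted p = 0.0192 by limma). The other tested genes, Kera, Lum and Col8a2 among them, were not called in SJL against either strain. The 8 lens markers summed to 74.9 to 206 in SJL, 55.7 to 58.4 in B6 and 52.7 to 55.3 in KS, with 6 of the 8 below 16 on all arrays. The part of cell content in the lower Gstm1 and Gstm2 was not tested. Over the 9 arrays the log2 values of Gstm1 and Gstm2 correlated at 0.898, a description over arrays that share strain.

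Gsta4, the alpha-class transferase that handles 4-hydroxynonenal, a product of lipid peroxidation, was among the brightest signals on the array. It read 33683, 32340 and 34204 in B6, 31215, 30701 and 30779 in KS, and 31235, 30361 and 31042 in SJL. Every KS and SJL array lay below every B6 array. The differences were small: -0.11 for KS against B6 (adjusted p = 0.436 by limma), -0.11 for SJL against B6 (0.337) and 0.00 for SJL against KS (95% interval -0.16 to 0.16, 0.996). The difference of SJL from B6 was called under 2 alternatives, with no filter (adjusted p = 0.0346) and with an intensity trend in the variance (0.031). The level was close to the highest value on any array, 37501. Whether the scale has a ceiling near there was not examined.

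Gsto1, an omega-class transferase that reduces oxidised thiols and dehydroascorbate, was also abundant and its values overlapped among strains. B6 averaged 19200 ± 1144, KS 18313 ± 479 and SJL 18481 ± 613 (SD, n = 3). The identical value of 18835 stood on 4 arrays, and 4 of the members' 20 probe sets held such repeats. No difference was called: 0.01 for SJL against KS (95% interval -0.17 to 0.20, adjusted p = 0.942 by limma), -0.07 for KS against B6 (0.704) and -0.05 for SJL against B6 (0.712). A second probe set, 1456036_x_at, averaged 20661 ± 690, 17485 ± 1478 and 15389 ± 1459, and was called lower in SJL than in B6 (-0.43, adjusted p = 0.0235).

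Mgst1 is the microsomal transferase that sits in the endoplasmic reticulum and outer mitochondrial membranes. By the probe sets that stand for the genes, it was the member with the largest difference. Other probe sets of Glo1, given below, differed more. In SJL, Mgst1 ran the other way from Gstm1 and Gstm2. It read 443, 424 and 369 in B6, 1070, 633 and 792 in KS, and 1146, 999 and 872 in SJL. All KS and SJL arrays lay above all B6 arrays, and KS and SJL overlapped. Means were 412 ± 38.3, 832 ± 221 and 1005 ± 137 (SD, n = 3). Mgst1 was 2.40-fold higher in SJL than in B6 (log2 difference 1.26, SE 0.19, adjusted p = 0.00249 by limma), which held under every alternative, and 1.95-fold higher in KS than in B6 (0.97, adjusted p = 0.0212). SJL and KS differed by 0.29 (95% interval -0.14 to 0.73, adjusted p = 0.354). The KS call was lost without KS replicate 3 (0.98, adjusted p = 0.0703) and without each B6 replicate (0.0531, 0.0553 and 0.0744 for replicates 1 to 3), and its size without those arrays lay between 0.89 and 1.02. The other Mgst1 probe set lay near 4.5 on all arrays and was not tested by itself; averaged with it, the differences from B6 were 0.48 for KS (adjusted p = 0.0252) and 0.63 for SJL (0.00333).

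The 2 peroxidases stood at opposite ends of the scale. Gpx1, the abundant intracellular enzyme that reduces hydrogen peroxide, read 8712, 8647 and 7782 in B6, 9195, 9596 and 9436 in KS, and 9858, 10197 and 9928 in SJL. No 2 strains overlapped, with B6 lowest and SJL highest. None of its differences was called: 0.09 for SJL against KS (adjusted p = 0.521 by limma), 0.17 for KS against B6 (0.291) and 0.26 for SJL against B6 (95% interval 0.07 to 0.44, 0.0631). The last of these passed under 5 alternatives, with adjusted p between 0.00865 for an intensity trend in the variance and 0.0419 for array weights. Gpx3, the secreted peroxidase, lay between 4.6 and 5.2 on 8 arrays and at 7.1 on KS replicate 2, near the lower end of the scale. Its one probe set gives only an upper bound on the transcript, and no fold change is given.

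Gclc and Gsr, which make and regenerate glutathione, showed no called difference. Gclc read 554, 556 and 567 in B6, 578, 492 and 571 in KS, and 570, 663 and 570 in SJL. The strains lay within 0.13 of one another on the log2 scale (SJL against KS, 95% interval -0.09 to 0.36, adjusted p = 0.422 by limma), and its second probe set was not called either. Gsr read 5119, 5158 and 4805 in B6, 3973, 4178 and 4855 in KS, and 5597, 5072 and 4915 in SJL. Every SJL array lay above every KS array, while B6 overlapped with both. SJL against KS was 0.26 (95% interval 0.03 to 0.49, adjusted p = 0.126), KS against B6 -0.22 (0.288) and SJL against B6 0.05 (0.818). The dim second probe set of Gsr gave 0.49 for SJL against KS (adjusted p = 0.0527), and the mean over both probe sets gave 0.38 (0.0383).

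Glo1, the first enzyme of the glyoxalase pathway, which converts the joined form of methylglyoxal and glutathione, was highest in KS. It read 7413, 6969 and 6555 in B6, 11710, 10877 and 10672 in KS, and 8501, 8676 and 8501 in SJL. No 2 strains overlapped, and the order was B6, SJL, KS. Means were 6979 ± 429, 11087 ± 550 and 8559 ± 101 (SD, n = 3), the SJL value resting on an identical reading of 2 arrays. Glo1 was 1.59-fold higher in KS than in B6 (log2 difference 0.67, SE 0.08, adjusted p = 0.0018 by limma), a call that held under every alternative. It was 1.29-fold lower in SJL than in KS (-0.37, adjusted p = 0.017) and 1.23-fold higher in SJL than in B6 (0.30, adjusted p = 0.0427).

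Without KS replicate 3 the Glo1 differences were 0.69 for KS against B6 (adjusted p = 0.00892) and -0.40 for SJL against KS (0.0417). The call of SJL against KS was lost without KS replicate 1 (adjusted p = 0.0637), KS replicate 2 (0.0507) or SJL replicate 3 (0.0579). The call of SJL against B6 was lost when any of the 9 arrays was left out (adjusted p from 0.0514 to 0.107).

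All 4 probe sets of Glo1 were higher in KS than in B6, but they differed on SJL. 1424108_at averaged 4196 ± 253 in B6, 8300 ± 230 in KS and 5214 ± 32.9 in SJL, and gave 0.98 for KS against B6 (1.98-fold, adjusted p = 0.000131 by limma), -0.67 for SJL against KS (0.000674) and 0.31 for SJL against B6 (0.0277). 1424109_a_at averaged 1246 ± 177, 3450 ± 429 and 1549 ± 15.7, with 1.46 for KS against B6 (2.76-fold, adjusted p = 0.000212), -1.14 for SJL against KS (0.000482) and 0.32 for SJL against B6 (0.13). These 2 and the brightest one thus gave SJL a mean above B6.

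The dimmest, 1436070_at, gave the opposite. It read 249, 232 and 218 in B6, 458, 536 and 453 in KS, and 36.4, 21.3 and 21.2 in SJL. SJL was 6.81-fold lower than B6 (-2.77, adjusted p = 1.17e-05 by limma) and 13.77-fold lower than KS (-3.78, 1.64e-06), while KS was 2.02-fold higher than B6 (1.02, 0.00733). A mean over all 4 probe sets turned the sign of SJL against B6 to -0.46 (adjusted p = 0.00414), and gave 1.03 for KS against B6 (7.71e-05) and -1.49 for SJL against KS (5.01e-06). The direction of Glo1 between SJL and B6 therefore depended on which probe set was read, whereas KS stood highest by each of the 4. The sequences of the probes were not used here.

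**Figure D2:**
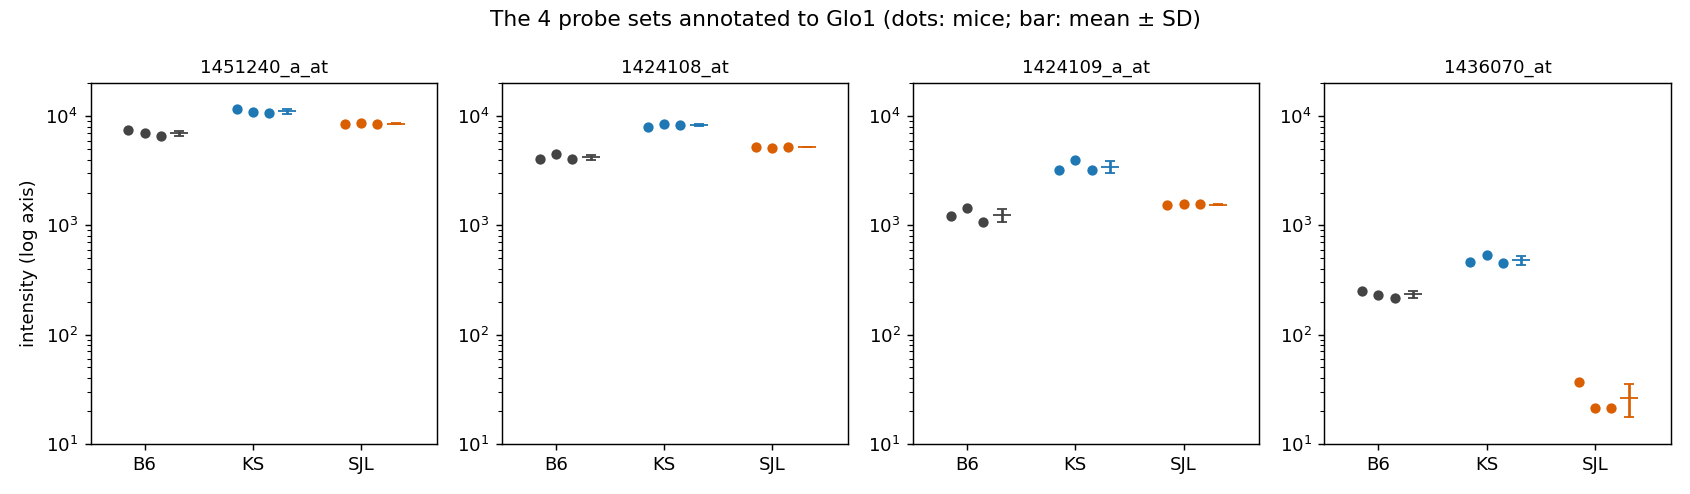
Intensity (log axis) on the 9 arrays for the 4 probe sets of Glo1. Dots are mice and the bars mean ± SD of 3 mice, and KS is highest in every panel, while SJL drops to between 21.2 and 36.4 only in the panel of 1436070_at.

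Counted over the 9 tested members, SJL against KS gave 3 lower (Gstm1, Gstm2 and Glo1) and 0 higher, or 33.3%, beside 14.9% of all 10956 tested genes (6.80% higher and 8.08% lower). KS against B6 gave 2 higher (Mgst1 and Glo1) and 0 lower, or 22.2%, beside 6.27% of genes (3.40% higher and 2.87% lower). SJL against B6 gave 2 higher (Mgst1 and Glo1) and 2 lower (Gstm1 and Gstm2), or 44.4%, beside 16.1% of genes (8.39% higher and 7.68% lower). The F-test over the 3 strains called 4 members (Gstm1, Gstm2, Mgst1 and Glo1), beside 19.4% of genes. Members called in KS against B6 numbered 1 without B6 replicate 1, B6 replicate 3 or KS replicate 3, and those called in SJL against B6 numbered 2 without any 1 of the 9 arrays other than B6 replicate 3 and KS replicate 2, where they numbered 3. With 9 genes tested, 1 gene moves these shares by over 10 points, and the 3 comparisons share arrays, so their counts are not independent. The members were also chosen with earlier results of these data known. The choice itself may have raised their shares, so no excess over all genes can be read from them. Groups did not overlap for 5, 5 and 7 of the 9 members in these comparisons, and for 35.5%, 31.1% and 32.8% of all tested genes. The median log2 difference of the members was 0.01 for SJL against KS, 0.12 for KS against B6 and 0.05 for SJL against B6, beside 0.02, 0.01 and 0.02 over all tested genes.

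**Figure D3:**
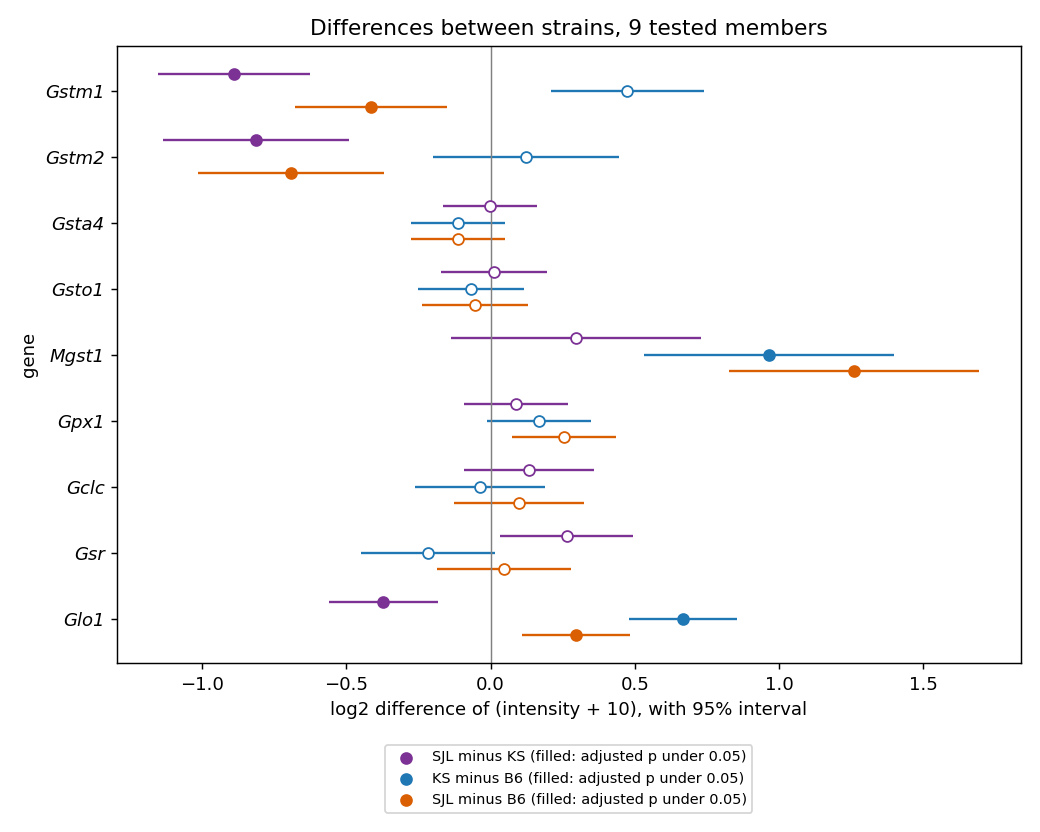
Log2 differences of (intensity + 10) between strains for the 9 tested genes, with 95% intervals from limma. Filled points have an adjusted p under 0.05, and they lie left of 0 for Gstm1 and Gstm2 in both comparisons with SJL, right of 0 for Mgst1 against B6, and on both sides for Glo1.

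Around the members, 8 lists of 95 other genes of the pathway were read in the same fit. The array measured 85 of them and 72 were tested. SJL against KS called 6 higher and 8 lower (19.4%), KS against B6 3 higher and 2 lower (6.94%), and SJL against B6 9 higher and 9 lower (25%). The F-test called 21 of the 72, beside 19.4% of all genes. In at least 1 comparison 23 were called, a count for which no share over all genes was taken. The shares of the 3 comparisons stand beside the 14.9%, 6.27% and 16.1% of all genes. These lists too were chosen with earlier results of these data known, so no excess can be read from their shares.

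Glutathione synthesis and supply had 10 tested genes, and each called difference was a lower level in SJL or KS. Cbs, which opens the route from homocysteine to cysteine, averaged 178 ± 56.7 in B6 and 4.6 in KS and SJL, near the lower end of the scale (log2 difference -3.64 for KS against B6, adjusted p = 8.68e-06 by limma, and -3.65 for SJL against B6, 5.09e-06). Its second probe set was lower in the same strains (-1.08 and -1.01). Cth, the next enzyme of that route, averaged 815 ± 58.6, 631 ± 43.2 and 396 ± 49.9 in B6, KS and SJL, and was lower in SJL than in KS (-0.66, adjusted p = 0.00537) and B6 (-1.03, 0.000493). Gss, glutathione synthetase, was lower in SJL than in B6 (-0.48, adjusted p = 0.0282), a call lost without B6 replicate 1 or 3, KS replicate 3, or SJL replicate 1 or 3 (adjusted p from 0.0501 to 0.0856). Gclm, the modifier subunit that works with Gclc, was not called (392 ± 41.6, 509 ± 24.2 and 395 ± 94.1). KS against B6 called 1 of the 10 and SJL against B6 3, all lower, and SJL against KS 1 lower.

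Of 13 tested cytosolic transferases beside the members, SJL against KS called 2 higher and 2 lower, KS against B6 3 higher, and SJL against B6 2 higher. Gstcd, named for its transferase-like C-terminal domain, averaged 75.7 ± 1.90 in B6, 571 ± 39.6 in KS and 64.4 ± 10.5 in SJL, so it was high in KS (2.76 against B6, adjusted p = 2.21e-06 by limma, and -2.97 for SJL against KS, 7.81e-07). Gstt2, a theta-class enzyme, rose from 411 ± 83.2 in B6 and 593 ± 80.1 in KS to 997 ± 62.4 in SJL (0.75 against KS, adjusted p = 0.0128, and 1.27 against B6, 0.000802). Gstk1, the kappa-class enzyme of mitochondria and peroxisomes, was higher in SJL than in KS (1.06, adjusted p = 0.0324) and B6 (1.28, 0.014). Its call against KS was lost without any 1 of the 6 KS and SJL arrays (adjusted p from 0.0673 to 0.0933). Gsta2 and Gstm5, named after their values were seen, were higher in KS than in B6 (0.60, adjusted p = 0.00624, and 0.54, 0.0269), and Gsta2 was lower in SJL than in KS (-0.54, 0.00515). The calls of Gsta2 and Gstm5 were not checked with arrays left out.

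Among 3 tested membrane-bound relatives of Mgst1, Mgst2 averaged 494 ± 39.6 in B6, 632 ± 77.4 in KS and 179 ± 45.3 in SJL. It was lower in SJL than in KS (-1.79, adjusted p = 0.000289 by limma) and B6 (-1.44, 0.000929), the reverse of Mgst1 against B6. Mgst3 was higher in SJL than in B6 (5052 ± 655 and 7257 ± 783, 0.52, adjusted p = 0.0256), a call lost without B6 replicate 1 or 3 or SJL replicate 2 or 3 (adjusted p from 0.0661 to 0.0704).

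Of 10 tested genes of peroxide removal, SJL against KS called 1 higher and 1 lower, KS against B6 none (0 of 10), and SJL against B6 1 lower. Gpx8, a peroxidase of the endoplasmic reticulum, was lower in SJL (1016 ± 165) than in KS (2489 ± 217, -1.29, adjusted p = 0.000909 by limma) and B6 (2009 ± 354, -0.97, 0.00385). Cat, catalase, was higher in SJL than in KS (2675 ± 185 and 1727 ± 292, 0.64, adjusted p = 0.0337), and that call was lost when any SJL array, KS replicate 2 or 3, or the first B6 replicate was dropped (adjusted p from 0.0512 to 0.121). In its second probe set Cat gave 1.34 for SJL against KS (0.00242) and was also lower in KS than in B6 (-0.91, 0.0336). Gpx4, which protects membrane lipids, averaged 4977 ± 443, 5389 ± 169 and 5731 ± 670 and was not called.

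In the thioredoxin and glutaredoxin list, SJL against KS called 1 of 10 lower, KS against B6 0, and SJL against B6 2 higher and 1 lower. Srxn1, sulfiredoxin, which repairs overoxidised peroxiredoxins, was lower in SJL (464 ± 66.5) than in KS (1005 ± 101, -1.10, adjusted p = 0.000443 by limma) and B6 (747 on each of 3 arrays, -0.69, 0.00555). A second probe set gave -1.56 and -1.26, both called, and the third was not called and had the other sign (0.24 and 0.39). Glrx and Glrx2, glutaredoxins that use glutathione to reduce mixed disulfides, were higher in SJL than in B6 (0.92, adjusted p = 0.0208, and 0.53, 0.0129). The Glrx call was lost without B6 replicate 2 or 3 or SJL replicate 1 or 2 (adjusted p from 0.0511 to 0.0664), and the 2 other probe sets of Glrx2 were not called (0.26 and 0.08).

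NADPH, the reductant that Gsr spends, comes from a few enzymes, of which 7 were tested. Me1, cytosolic malic enzyme, was low in SJL (31.1 ± 9.75, beside 186 ± 39.0 in KS and 140 ± 49.2 in B6; -2.26, adjusted p = 0.000571 by limma, and -1.85, 0.00164). Nnt, the mitochondrial transhydrogenase, was higher in SJL than in KS (0.63, adjusted p = 0.0141) and B6 (0.52, 0.0335). The first was lost without KS replicate 3 (adjusted p = 0.057), and the second without B6 replicate 1 or 2, KS replicate 1, or SJL replicate 2 or 3 (0.0561 to 0.0967). C57BL/6J mice are known to carry a deletion within Nnt, and where the probes lie relative to it was not examined. KS against B6 called 0 of these 7, and each comparison with SJL called 1 higher and 1 lower.

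In the NRF2 list, SJL against KS called 0 of 7 genes, KS against B6 called 0, and SJL against B6 called 1. That gene was Nqo1, the quinone reductase often read as a target of NRF2, which averaged 3249 ± 227 in B6 and 2372 ± 76.0 in SJL (-0.45, adjusted p = 0.0227 by limma). The call was lost without B6 replicate 3 (0.0666) or SJL replicate 3 (0.0794). Nfe2l2, which encodes NRF2, averaged 2988 ± 277, 2533 ± 86.8 and 2750 ± 306, and its partner Keap1 averaged 1864 ± 58.4, 1855 ± 94.1 and 1771 ± 153. Neither was called in any comparison.

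Of 12 tested genes for carbonyls and other reactive compounds, SJL against KS called 2 higher and 1 lower, KS against B6 1 lower, and SJL against B6 3 higher and 1 lower. Cbr2, a carbonyl reductase, was lower in SJL (2920 ± 650) than in KS (6393 ± 262, -1.15, adjusted p = 0.00178 by limma) and B6 (6438 ± 461, -1.16, 0.00161). Sqor, which passes sulfide-derived electrons to the respiratory chain, was higher in SJL (133 ± 39.5) than in KS (51.6 ± 7.44, 1.18, 0.00659) and B6 (26.3 ± 6.65, 1.96, 0.000432). Akr1b8, an aldo-keto reductase, was low in KS (62.5 ± 16.1, beside 138 ± 8.63 in B6 and 139 ± 40.0 in SJL; 1.04 for SJL against KS, 0.0112, and -1.05 for KS against B6, 0.022). The second of these calls was lost without any B6 replicate or KS replicate 1 or 2 (0.0587 to 0.0822). Hagh, glyoxalase 2, which completes the reaction that Glo1 begins, averaged 1016 ± 38.2, 945 ± 142 and 1033 ± 224 and was not called.

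**Figure D4:**
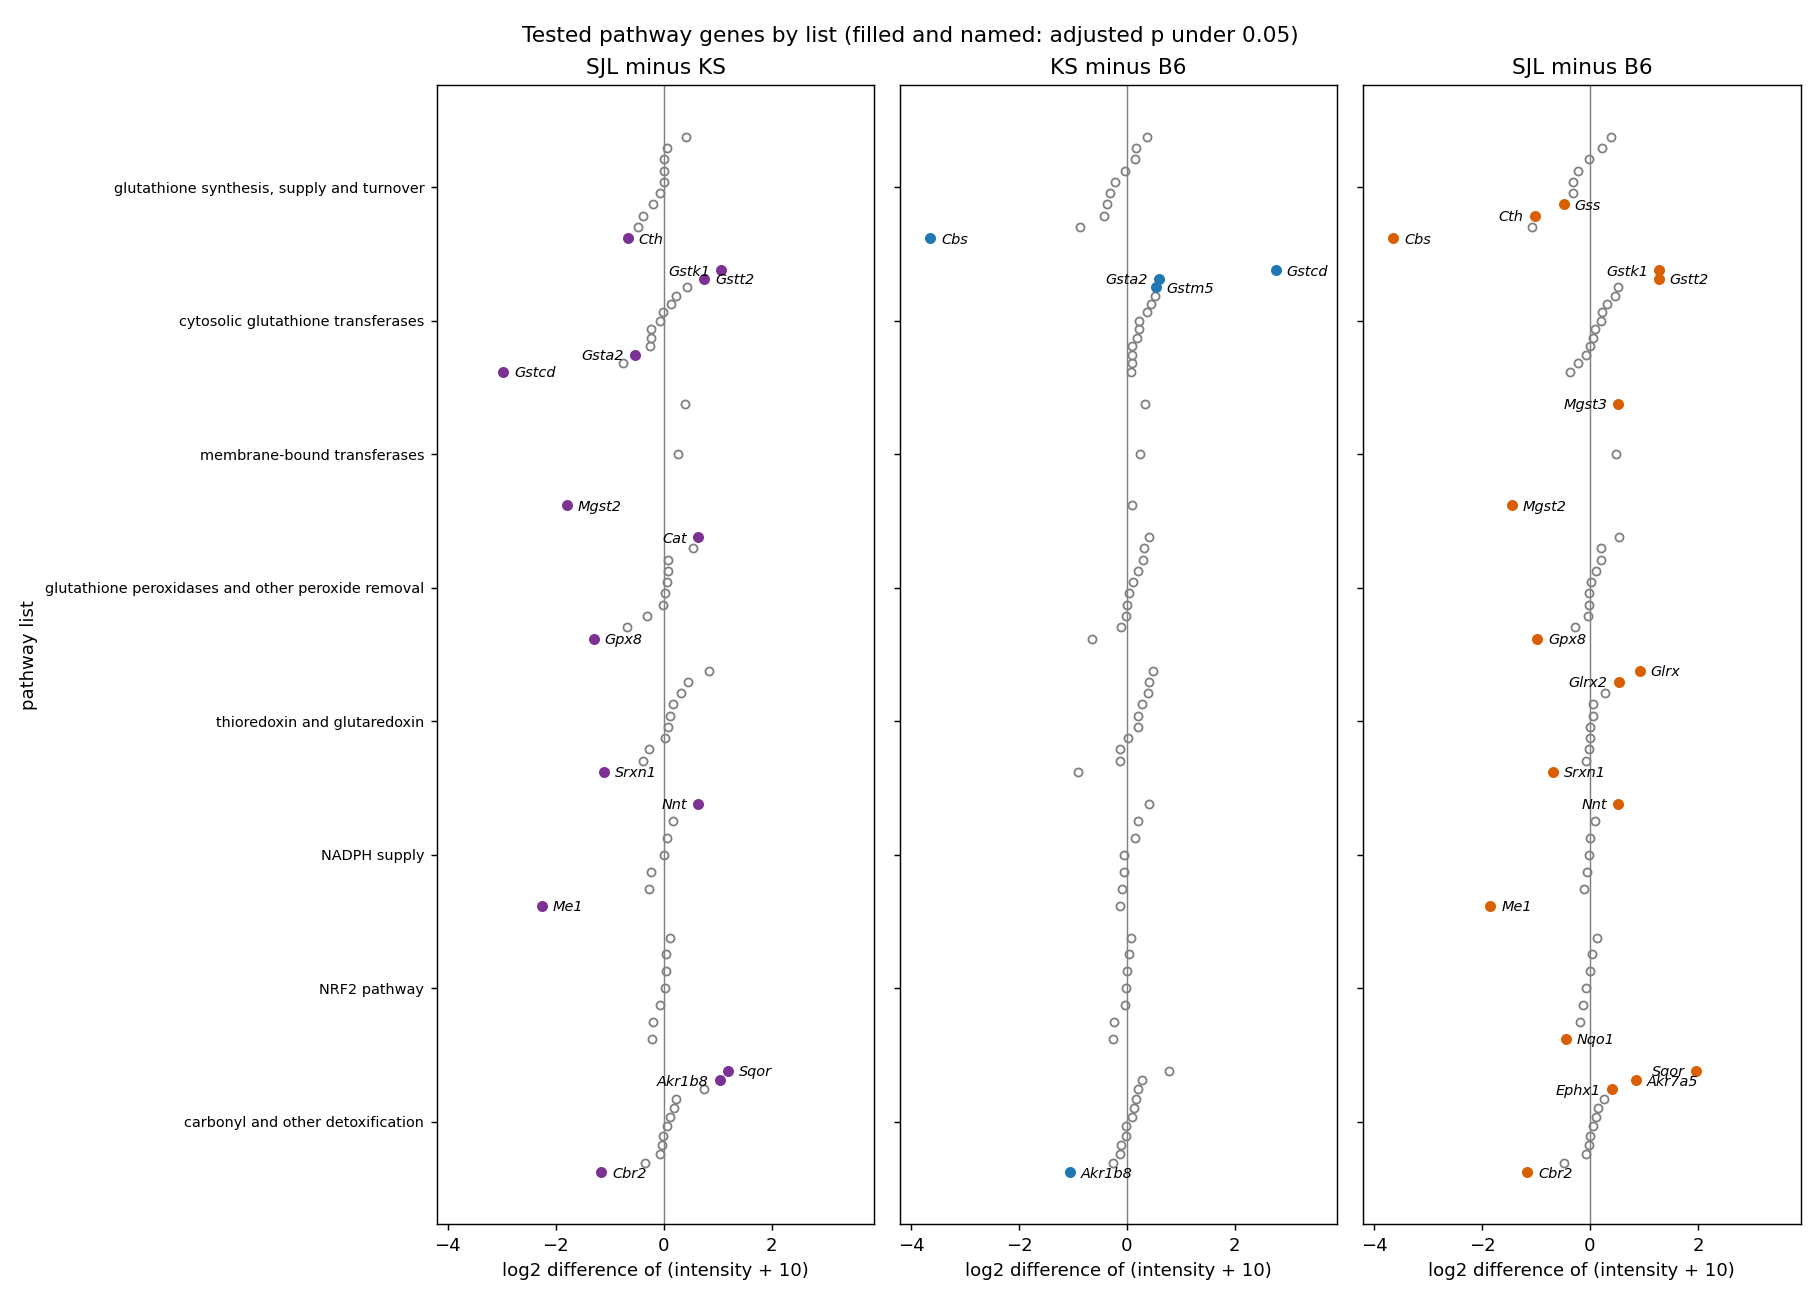
Log2 differences of (intensity + 10) for the 72 tested pathway genes, by list, in the 3 comparisons. Each point is a gene, named and filled where its adjusted p is under 0.05, and the panel of KS against B6 has the fewest filled points, 3 to the right of 0 and 2 to the left.

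The chromosomal surroundings of the members were read from the 5 tested protein-coding genes on either side, in RefSeq gene order. Over all tested genes, SJL against KS called 14.9%, KS against B6 6.27% and SJL against B6 16.1%. Counts of called neighbours are given in that order of comparisons. Gstm2 and Gstm1 are adjacent in that order, with Gstm5 on one side and Gstm4 on the other. Gstm4 was dim (40.5 ± 1.61, 44.3 ± 6.16 and 43.7 ± 2.61 in B6, KS and SJL) and was not called, so the lower level in SJL was called for Gstm1 and Gstm2 but not for Gstm4 or Gstm5. Whether the members of this cluster differ from each other in their difference between strains was not tested. Of the remaining neighbours, Ahcyl1 was called lower in SJL than in KS (-0.28, adjusted p = 0.0478 by limma).

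Around Mgst1, SJL against KS called 3 of 10 neighbours, KS against B6 called 2, and SJL against B6 called 6. The shares over all tested genes were 14.9%, 6.27% and 16.1%. Arhgdib was higher in SJL than in B6 (1.58, adjusted p = 0.000143 by limma), and Rerg, a small GTPase, was higher in KS (0.70, 0.00363) and SJL (0.63, 0.00286) than in B6, as Mgst1 was. Eps8, an actin regulator, was lower in KS (-1.41, 1.6e-05) and SJL (-1.21, 2.33e-05). Near Glo1, 1, 2 and 1 of 10 were called in the same order of comparisons. Pde9a, a cyclic GMP phosphodiesterase, averaged 244 in B6, 931 in KS and 347 in SJL (1.93 for KS against B6, 0.000965, and -1.40 for SJL against KS, 0.00289). Btbd9, next to Glo1, was not called (0.04 for KS against B6, 0.942). A separate list of 7 genes had been drawn up as neighbours of Glo1, and 4 of them were tested. Btbd9 and Zfand3 of that list are among the 10 neighbours already counted. Only Kcnk5 of the list was called, and it is not among those 10 in RefSeq order, so it is not shown to lie near Glo1. Kcnk5 encodes a potassium channel and was lower in KS (-1.49, 0.00762) and SJL (-1.61, 0.00229) than in B6.

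Gsta4 and Gclc lie on the same stretch of chromosome 9. Gsta4 was itself uncalled but had 2, 3 and 5 called genes among its 10 neighbours. Of these, Ooep, an oocyte gene, averaged 2112 in B6, 73.8 in KS and 110 in SJL (-4.68 for KS against B6, adjusted p = 2.86e-05 by limma). It was named after its values were seen. The 10 neighbours of Gpx1 held 0 calls in each comparison with limma. Those of Gsr held 3, 0 and 5, of Gpx3 3, 2 and 2, and of Gclc 2, 1 and 2. Those of Gsto1 held 1, 0 and 1, and those of Gstm1 and of Gstm2 each 2, 1 and 1.

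**Figure D5:**
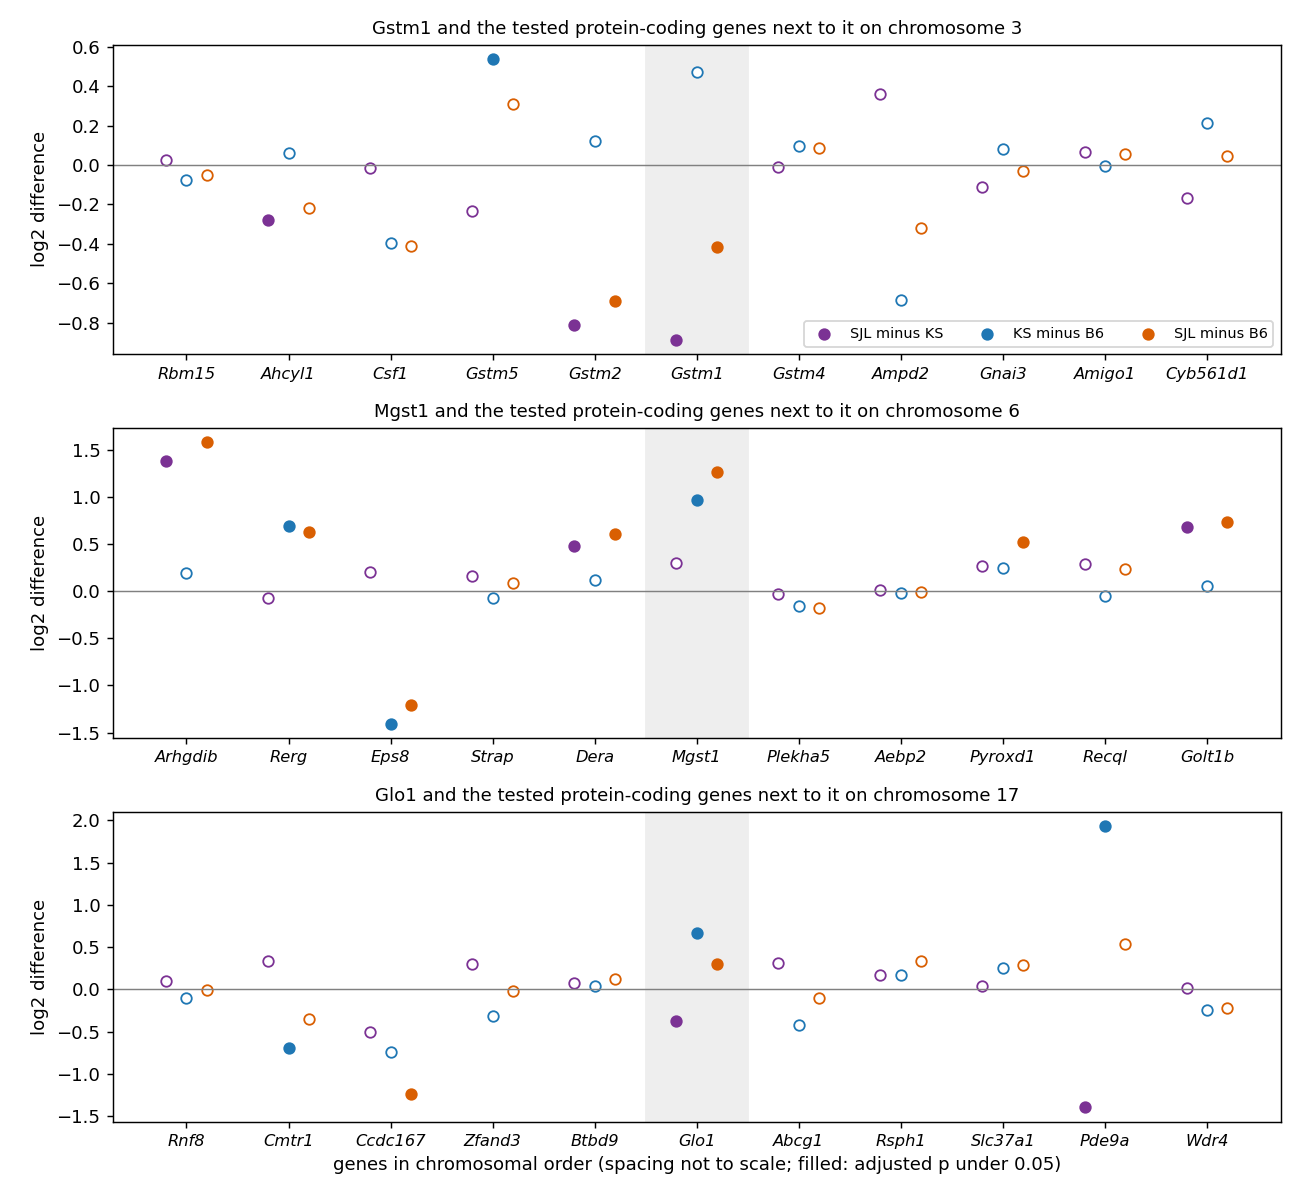
Log2 differences between strains for Gstm1, Mgst1 and Glo1 (shaded) and 5 tested protein-coding genes on either side, in chromosomal order and not to scale. Filled points have an adjusted p under 0.05, and 6 of 10 neighbours of Mgst1 are filled for SJL against B6, beside 16.1% of all tested genes.

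For the 4 members called by the F-test, the genes with the most similar log2 values over the 9 arrays were listed as a description. The highest correlations were 0.985 with Tgif2, 0.976 with Fbxo45 and 0.969 with Eml2 for Gstm1. For Gstm2 they were 0.981 with St6galnac2, 0.972 with Fdps and 0.971 with Tubd1. For Mgst1 they were 0.965 with Stau2, 0.960 with Etfrf1 and 0.957 with Kank3, and for Glo1 0.977 with Prss32, 0.973 with Serac1 and 0.970 with Krt18. The 9 arrays fall into 3 strains, so any gene with the same order of strain means scores highly.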

How the data were processed

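RNA of the central cornea was measured on Affymetrix arrays, 1 per mouse, in 3 strains with 3 arrays each. The deposited values were linear intensities per probe set, already summarised over probes by the authors; the methods of summary, background correction and scaling are not given in the sources used here. Per the labels' protocols, RNA was DNase-treated, purified on a column and biotin-labelled. There were 45101 probe sets, 64 of them controls. Upper quartiles lay between 380 and 398, so no further scaling was done. At 7795 probe sets 2 or more arrays shared an identical value. Arrays carry no read depth; their number, 3 per strain, limits the precision.

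Of the non-control probe sets, 34945 had 1 gene symbol in the platform annotation, 932 several and 9160 none. Those with a mean log2 value below the median were left out, which left 22519. Log2(intensity + 10) was fitted with 1 mean per strain in limma 3.58.1 (R 4.3.3), 6 residual degrees of freedom, all tests two-sided, with Benjamini-Hochberg adjustment over 22519 probe sets. Called means an adjusted p under 0.05. Fold changes are on the log2(intensity + 10) scale, which understates low genes. With 3 arrays a side, the smallest p of an exact permutation test is 0.1, so none was run. The labels do not say whether mice were littermates. The fit was tested on simulated data.

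All 10 members were described. From each pathway list, up to 3 called genes with the largest absolute difference were named, with Gclm, Gss, Gpx4, Cat, Nfe2l2, Keap1, Hagh and Nqo1 in any case. Akr7a5 and Ephx1, also called, fell outside that limit and are named on a plot. Their calls were not checked with arrays left out. For each member called by the F-test, the 3 tested genes most correlated with it were named. Members and lists were chosen with earlier results of these data known. The fit was repeated without the filter and with a stricter one (percentile 70), with quantile normalization, median centring, pseudocounts of 1 and 50, a variance trend, array weights, a block for replicate number, the 6 compared arrays alone, the mean of a gene's probe sets, plain probe sets without a suffix for shared sequence, and with each array left out.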

Additional observations from a re-analysis of the deposited data

How the results depend on the processing

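Of the 9 calls among members, 5 held under every alternative that tested them: SJL against KS for Gstm1 and Gstm2, SJL against B6 for Gstm2 and Mgst1, and KS against B6 for Glo1. Of 34 calls among named pathway genes, 22 did. Members called in KS against B6 numbered 1 with no filter and 1 with only the 6 arrays, and members called in SJL against B6 numbered 2 with only the 6 arrays. In the other direction, the variance trend raised the members called in SJL against B6 from 4 to 6, adding Gsta4 and Gpx1, and those in KS against B6 from 2 to 3, adding Gstm1. With no filter Gsta4 and Gpx1 were also called in SJL against B6 and Gstm1 was not, which gave 5. Leaving out 1 array gave 2 to 3 members in SJL against KS, 1 to 2 in KS against B6, 2 to 3 in SJL against B6 and 4 by the F-test. Glo1 in SJL against B6 reversed to -0.46 with the mean of all probe sets, since 1436070_at ran opposite to the other 3. With the replicate block the counts were 3, 2, 3 and 4. Deviations of arrays with the same replicate number correlated from -0.27 to 0.26, with 0.07, 0.22 and 0.26 for replicate 1. With 3 arrays per strain, these values cannot settle whether the numbers pair the mice. Over all probe sets, 3489, 1286, 3605 and 4374 (F-test) were called in the reported fit, 7121, 2139, 5546 and 7916 with array weights, 2468, 838, 2578 and 3057 with no filter, and 2101, 742, 2156 and 2659 with the stricter filter. The causes of these shifts were not tested. The floor of the scale hides Gpx3 and other dim probe sets, and Gsta4 lies near the highest values measured.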
